A study of Mus musculus with 12 samples.

Results

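The insulin-like growth factor (IGF) system was followed in cultured mouse astrocytes through 10 genes chosen by name: the ligands Igf1 and Igf2, the receptors Igf1r and Igf2r, and the binding proteins Igfbp2, Igfbp3, Igfbp4, Igfbp5, Igfbp6 and Igfbp7. All array probes annotated to these symbols were taken, which gave 12 of the 24613 probes and covered 9 of the 10 genes, out of 15967 gene symbols on the array. Igfbp3 had no listed probe and is not analysed here. The cultures came from the cerebral cortex of SAMP8, the senescence-accelerated mouse line, and of SAMR1, its senescence-resistant control line, both taken at 2 days of age and used after 21 days in culture. For 48 h the medium held 10% heat-inactivated serum of rats on free feeding (AL, ad libitum) or on a restricted diet (CR, caloric restriction), so that every group, controls included, received rat serum. The 4 combinations are written SAMR1-AL and SAMR1-CR for the control line and SAMP8-AL and SAMP8-CR for the other, each with 3 samples, which the study describes as independent experiments, and the labels do not say how many pups went into a culture. The study describes its established cultures as mostly astrocytes, with a minority of microglia and few oligodendroglia. Each line is an inbred stock of its own, so a difference between SAMP8 and SAMR1 is one between 2 stocks.

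In the IGF system, Igf1 and Igf2 encode small secreted peptides that act through the receptor tyrosine kinase encoded by Igf1r. The protein of Igf2r takes up and degrades Igf2 peptide and also sorts lysosomal enzymes. The binding proteins hold the peptides outside the cell, extend their lifetime and either block or assist their access to the receptor, and Igfbp7 binds them only weakly. Astrocytes are a known source of Igfbp2 and Igfbp5 in the brain, microglia of Igf1, and the meninges and the choroid plexus of Igf2. The arrays measure the RNA of the cultured cells and not the peptides that the rat serum brings.

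Sequences are shown for Igf1r, Igf2 and Igfbp4, the 3 genes with a probe past the threshold between the lines. The Igf1r probe lies in the coding part for the tyrosine kinase domain, on chromosome 7, and is shown because Igf1r gave the smallest within-group spread of all members tested.
Igf1r probe: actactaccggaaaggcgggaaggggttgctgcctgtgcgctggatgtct
The 250 bases before the transcription start of Igf1r, of Igfbp4 and of the most downstream of the 4 listed Igf2 starts are from RefSeq on GRCm38.p6, the genome of another strain (C57BL/6J), and read 5′ to 3′ along the gene. Capitals mark the GC box GGGCGG and the TATA box TATAAA, searched on both strands.
Igf2 (chr7:142657497-142657746, minus strand): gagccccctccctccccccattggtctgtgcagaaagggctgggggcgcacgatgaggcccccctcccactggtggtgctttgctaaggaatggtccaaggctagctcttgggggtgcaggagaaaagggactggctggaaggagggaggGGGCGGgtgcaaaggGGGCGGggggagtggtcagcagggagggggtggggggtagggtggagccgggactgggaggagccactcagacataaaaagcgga
Igf1r (chr7:67952007-67952256, plus strand): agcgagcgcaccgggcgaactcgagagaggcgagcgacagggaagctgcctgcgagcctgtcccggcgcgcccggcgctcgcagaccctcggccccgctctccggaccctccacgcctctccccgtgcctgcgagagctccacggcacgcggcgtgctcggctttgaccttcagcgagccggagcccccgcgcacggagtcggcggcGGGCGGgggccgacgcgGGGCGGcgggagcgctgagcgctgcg
Igfbp4 (chr11:99040994-99041243, plus strand): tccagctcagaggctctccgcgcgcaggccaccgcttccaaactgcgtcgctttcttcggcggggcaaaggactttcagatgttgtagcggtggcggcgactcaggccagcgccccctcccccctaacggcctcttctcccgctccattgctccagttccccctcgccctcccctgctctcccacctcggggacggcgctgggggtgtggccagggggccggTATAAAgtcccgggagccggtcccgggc
The Igf2 window held the GC box at 2 places and so did that of Igf1r, while the Igfbp4 window held 0 GC boxes and 1 TATA box. Of all 32851 listed windows of that length, 32.7% held a GC box and 12.4% a TATA box. Of the other members, Igf2r held 3 GC boxes, Igfbp7 4 and the first of the 2 Igfbp2 starts 3, and the Igfbp6 window held a TATA box. Igfbp2 and Igfbp5 are direct neighbours among the protein-coding genes of chromosome 1.

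The arrays detected 41.2% to 46.7% of their probes at a detection p under 0.05, a value that sets each probe against the array's negative control beads. Array intensities were put on a common scale by subtracting the mean log2 intensity of each array and dividing by its SD, then multiplying by the mean SD, and the values below are on this normalized log2 scale, where 0 is the array's mean probe. A probe was tested if it was detected on all 3 arrays of at least 1 group, which kept 10935 probes. The arrays fell into 2 sets by their lowest intensity, which was 7.01 to 8.19 on 8 arrays and 40.1 to 42.9 on the other 4. This second array set holds SAMP8-AL replicates 2 and 3 and SAMP8-CR replicates 2 and 3, and no label names it. All SAMR1 samples and replicate 1 of both SAMP8 groups belong to the first array set, so that line and array set can be separated only through those 2 SAMP8 samples. Among the astrocyte markers 11 of 14 genes were detected on all 12 arrays, Gfap and Aqp4 among them, and Slc1a2 on none. Microglia and macrophage markers were lower in SAMP8, with 10 of 13 tested genes past the threshold over both sera and 0 higher, where 5.93% of all tested probes were lower. Fibroblast and meningeal markers stood apart by array set, at a mean of 1.82 to 1.93 in the second set, 0.68 to 0.97 in the 2 SAMP8 samples of the first set and 1.05 to 1.67 in SAMR1.

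Of the 12 member probes 10 were tested, and 3 of them passed the threshold between the lines over both sera, all higher in SAMP8: Igf1r, Igf2 and 1 of the 2 Igfbp4 probes. The threshold was an adjusted p under 0.05 in the limma fit with Benjamini-Hochberg adjustment over all 10935 probes. That fit counts all 12 samples as independent, also the AL and CR samples of a line that carry the same replicate number. Between the lines over both sera 15.6% of all tested probes passed and 9.71% passed as higher, so 3 of 10 is set against that share. At an unadjusted p under 0.05 there were 4 member probes and 30.9% of all probes. Between the lines in AL serum (P8AL-R1AL), 1 member probe passed, Igf1r, where 9.67% of all probes passed and 6.15% were higher, and 2 had an unadjusted p under 0.05, against 25.4% of all probes. Between the lines in CR serum (P8CR-R1CR) none of the 10 passed, where 2.8% of all probes did, and 3 had an unadjusted p under 0.05, against 15.9% of all probes. The median log2 fold change of the members between the lines over both sera was 0.35, and that of all tested probes was 0.04. This shift was not shared by all members once the array set was a block. In that fit Igf1, Igf2r, Igfbp4 probe a, Igfbp6 and Igfbp7 were lower in SAMP8, at -0.85 to -0.05. The other member probes were higher, at 0.16 to 0.70, and none passed in either direction. The within-group SD was 0.136 for Igf1r and 1.31 for Igf2, against a median of 0.187 over all tested probes, and all members but Igf1r lay above that median.

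**Figure D1:**
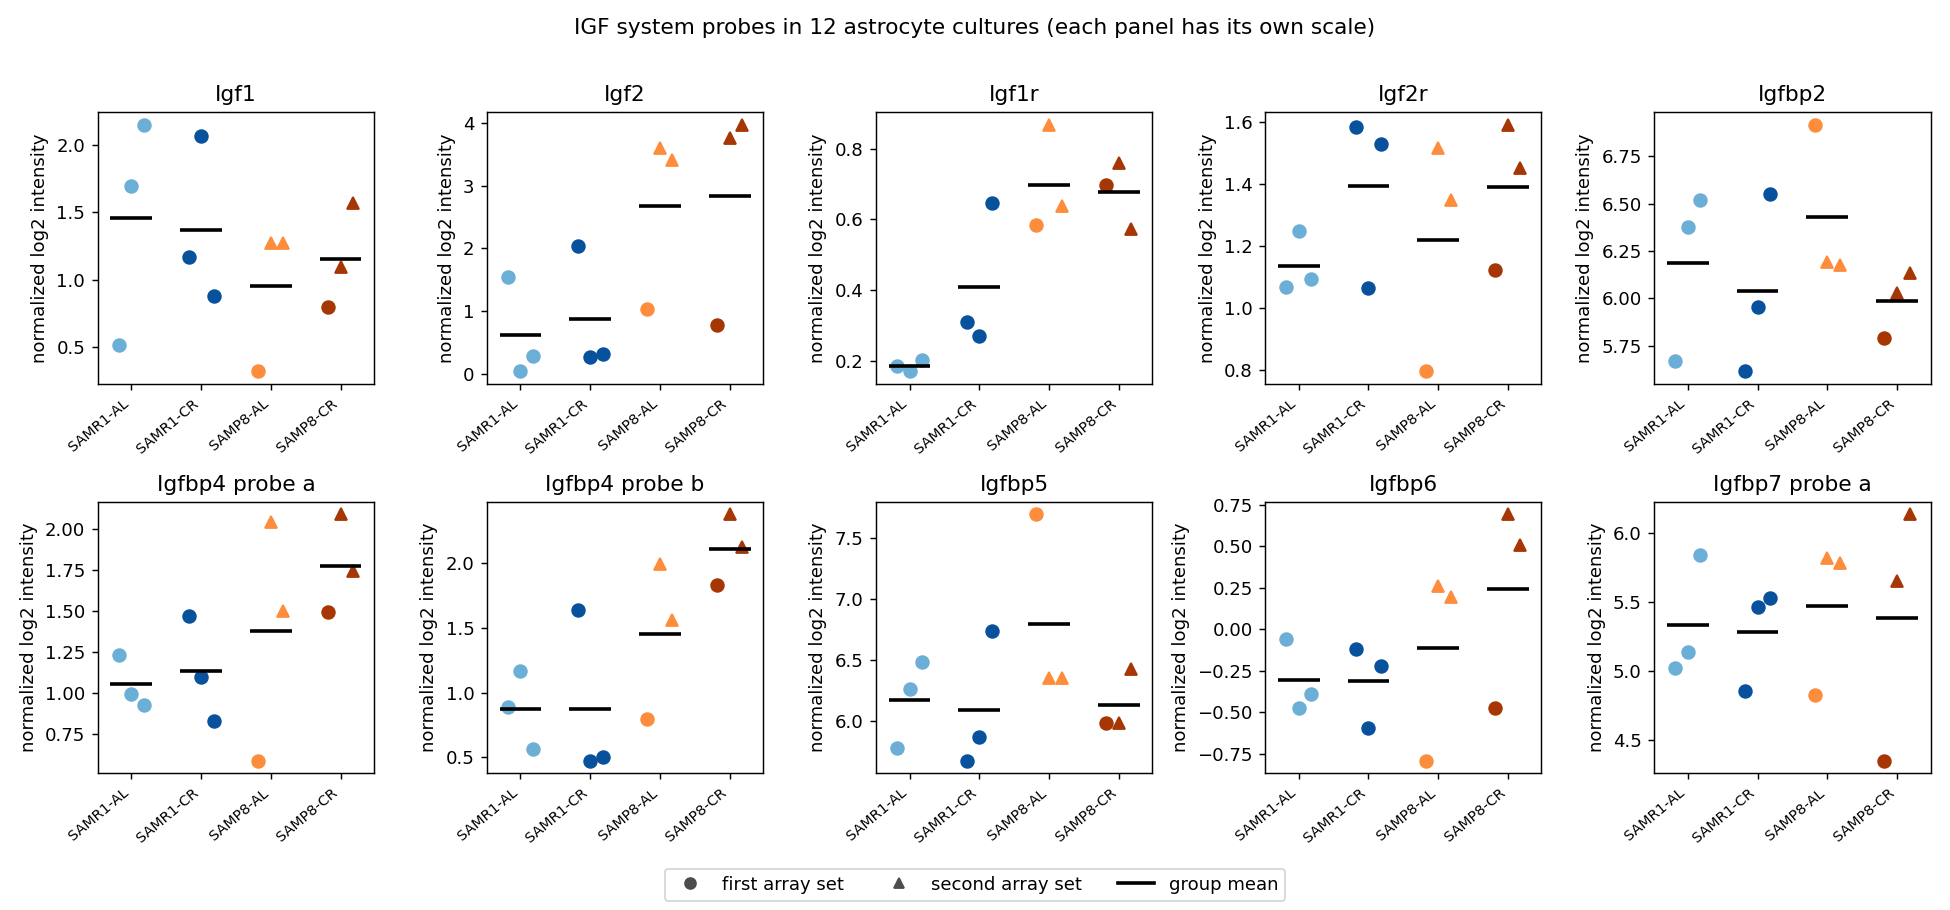
Normalized log2 intensity (vertical axis) of the 10 tested probes in each of the 12 samples, by group, with circles for the first and triangles for the second array set and a bar for the group mean of 3 samples. The 4 triangles of Igf2 lie at 3.41 to 3.98 and all circles at 0.04 to 2.04, while the Igf1r samples of SAMP8 lie at 0.57 to 0.87 in both sets.

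Igf1r, the receptor through which both ligands signal, was higher in SAMP8. In SAMR1-AL it was 0.19, 0.17 and 0.20 in replicates 1 to 3, and in SAMP8-AL it was 0.58, 0.87 and 0.64. The 2 groups did not overlap, which was also the case with SAMP8 higher for 18.7% of all tested probes. In CR serum the SAMR1 samples were at 0.31, 0.27 and 0.65 and the SAMP8 samples at 0.70, 0.76 and 0.57. Here replicate 3 of SAMR1-CR lay above replicate 3 of SAMP8-CR, and the groups overlapped. The log2 fold change was 0.51 (SE 0.14, 1.42-fold, n = 3 per group) in AL serum, with an adjusted p of 0.034 in limma, and 0.27 (SE 0.14) in CR serum, with an adjusted p of 0.372. Over both sera it was 0.39 (SE 0.10, 1.31-fold, 95% interval 0.18 to 0.60, limma adjusted p = 0.0155), and the line by serum interaction of -0.24 (SE 0.20) did not pass (adjusted p = 0.969). The 2 SAMP8 samples of the first array set, at 0.58 and 0.70, lay within the range of the 4 samples of the second set, 0.57 to 0.87. With the array set as a block the log2 fold change over both sera was 0.34 with an adjusted p of 0.178, so its size stayed near 0.39 and the call was lost. The AL call was lost without any 1 of the 6 AL samples, with adjusted p-values of 0.0562 to 0.139, and kept without any 1 of the 6 CR samples. It was also lost after quantile normalization, at 0.43 (adjusted p = 0.0592), and after limma's neqc, at 0.64 (adjusted p = 0.061). By the Z ratio cutoff that the study's methods name, which asks for a minimum size of change, Igf1r was called neither in AL serum nor over both sera.

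Igf2, the fetal ligand and a paternally expressed imprinted gene, had the largest log2 fold change of the members between the lines, and its samples divided by array set. The SAMR1-AL samples were at 1.54, 0.04 and 0.29, and the SAMR1-CR samples at 2.04, 0.26 and 0.31. In both groups replicate 1 stood above the others. The SAMP8-AL samples were at 1.04, 3.60 and 3.41 and the SAMP8-CR samples at 0.79, 3.76 and 3.98. In each SAMP8 group replicate 1 was low, below replicate 1 of SAMR1 in the same serum, and replicates 2 and 3 were above all other samples. On the scale of the deposited intensities, the 4 high samples were at 1424 to 2563 and the other 8 at 156 to 936. Over both sera the log2 fold change was 2.01 (SE 0.57, 4.04-fold, 95% interval 0.78 to 3.24, n = 6 per line, limma adjusted p = 0.0292). This counts the AL and CR samples of 1 number as independent. From replicate 1 to 3, CR differed from AL by 0.50, 0.23 and 0.03 in SAMR1 and by -0.25, 0.16 and 0.57 in SAMP8. If such samples are related, the interval is too narrow and the p-value too small. Within single sera the log2 fold change was 2.06 (SE 0.81, adjusted p = 0.126) in AL and 1.97 (SE 0.81, adjusted p = 0.241) in CR serum, and neither passed. In the 10 samples without replicate 1 of SAMR1-AL and of SAMP8-AL the AL value was 3.34 (adjusted p = 0.0404). There SAMP8-AL holds only samples of the second array set and SAMR1-AL only of the first, so line and array set cannot be separated.

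With the array set as a block, the Igf2 log2 fold change over both sera was 0.16 (adjusted p = 0.878), and among the 8 samples of the first set it was 0.16 in the limma fit of those samples (adjusted p = 0.926). Without the 2 SAMP8 samples of the first set it was 2.93 (adjusted p = 0.000208), an alternative chosen after seeing the data that leaves line and array set inseparable. The call over both sera was lost without replicate 2 or replicate 3 of any group, with adjusted p-values of 0.0552 to 0.0756, and kept without replicate 1 of any group. The level of fibroblast and meningeal markers moved with Igf2 in part of the samples. Of 20 such genes on the array 10 were detected on all 12 arrays, and 6 (Aldh1a2, Foxc1, Tbx18, Slc22a6, Slc6a13 and Fap) on none. The mean of the 14 tested markers was 1.05 to 1.29 in SAMR1-AL, 1.11 to 1.67 in SAMR1-CR, 0.68 to 1.88 in SAMP8-AL and 0.97 to 1.93 in SAMP8-CR. It was highest in the 4 samples in which Igf2 was highest, and among SAMR1-CR it was highest in replicate 1, as was Igf2. The 2 SAMP8 samples of the first set did not follow this order. Their Igf2 values, 1.04 in AL and 0.79 in CR serum, lay above replicates 2 and 3 of SAMR1, while their marker means, 0.68 and 0.97, were the lowest of all samples. Choroid plexus and ependymal markers, of which 3 of 10 genes on the array (Ttr, Folr1 and Dynlrb2) were detected on all 12 arrays and Kl, Kcne2 and Tmem212 on none, had their highest means over 5 tested genes in SAMR1-AL replicate 1 (1.33) and SAMR1-CR replicate 1 (1.40), the 2 SAMR1 samples with the highest Igf2. In the other 10 samples that mean was 0.05 to 0.83, and it was 0.46 to 0.83 in the second array set. The part of either marker list in the Igf2 values was not tested. In RNA of whole cultures, fewer cells of a type and less RNA per cell cannot be told apart, which holds for every member.

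**Figure D2:**
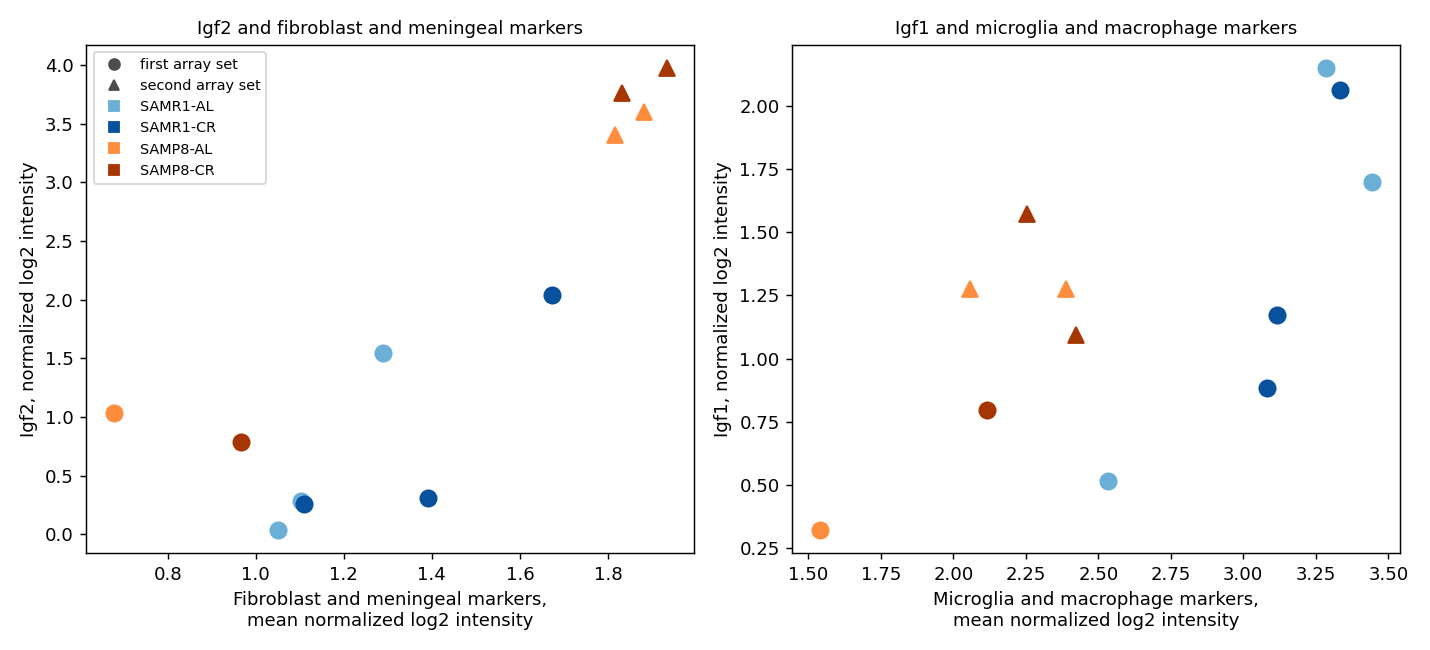
Normalized log2 intensity of Igf2 against the mean of 14 tested fibroblast and meningeal markers (left) and of Igf1 against the mean of 13 tested microglia and macrophage markers (right), 1 point a sample, coloured by group and shaped by array set. The 4 samples of the second array set lie at marker means of 1.82 to 1.93 and Igf2 values of 3.41 to 3.98, and all 6 SAMP8 samples lie left of all SAMR1 samples on the microglial axis.

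Igf1, the ligand made by microglia, did not pass in any comparison. Its samples were at 0.52, 1.70 and 2.15 in SAMR1-AL, 1.17, 2.06 and 0.88 in SAMR1-CR, 0.32, 1.28 and 1.28 in SAMP8-AL and 0.80, 1.09 and 1.57 in SAMP8-CR. All 4 groups overlapped, and the spread within SAMR1-AL alone covered most of the range over the 12 samples. The log2 fold change between the lines over both sera was -0.36 (SE 0.28, 95% interval -0.96 to 0.24, limma adjusted p = 0.418). With the array set as a block it was -0.85 (adjusted p = 0.179). The microglial marker mean was 2.53 to 3.45 in SAMR1-AL, 3.08 to 3.33 in SAMR1-CR, 1.54 to 2.39 in SAMP8-AL and 2.12 to 2.42 in SAMP8-CR, with no overlap between the lines. Of those markers on the array 13 of 15 were detected on all 12 arrays, and Itgam and P2ry12 on none. The sample with the lowest marker mean, SAMP8-AL replicate 1, also had the lowest Igf1, and the part of these markers in the Igf1 values was not tested.

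Igf2r, the scavenger receptor, did not pass in any comparison, and all 4 groups overlapped. The samples were at 1.07, 1.25 and 1.10 in SAMR1-AL, 1.58, 1.07 and 1.53 in SAMR1-CR, 0.80, 1.52 and 1.35 in SAMP8-AL and 1.12, 1.59 and 1.45 in SAMP8-CR. The log2 fold change between the lines over both sera was 0.04 (SE 0.14, 95% interval -0.26 to 0.34, limma adjusted p = 0.881). Its sign was negative with the array set as a block, at -0.31 (adjusted p = 0.296), and after quantile normalization, at -0.03 (adjusted p = 0.892).

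Igfbp4, an inhibitor of IGF action that is cleaved by the protease encoded by Pappa, was measured by 2 probes. Both were highest in SAMP8-CR replicate 2, and they differed by -0.37 to 0.62 (probe a minus probe b) across the 12 samples. Probe b was at 0.89, 1.17 and 0.56 in SAMR1-AL and at 1.64, 0.47 and 0.51 in SAMR1-CR. It was at 0.80, 1.99 and 1.56 in SAMP8-AL and at 1.83, 2.38 and 2.12 in SAMP8-CR. In CR serum every SAMP8 sample was above every SAMR1 sample on both probes, which with SAMP8 higher was the case for 11.6% of all tested probes. In AL serum replicate 1 of SAMP8 lay among the SAMR1 samples on probe b and below them on probe a. Probe b had a log2 fold change of 0.91 over both sera (SE 0.23, 1.87-fold, 95% interval 0.42 to 1.40, n = 6 per line, limma adjusted p = 0.0158), and of 1.24 in CR serum (SE 0.32, 2.36-fold, adjusted p = 0.059), just short of the threshold. Probe a had 0.48 over both sera (SE 0.21, adjusted p = 0.124) and 0.64 in CR serum (SE 0.29, adjusted p = 0.294), and passed in neither. In the 10 samples without replicate 1 of SAMR1-AL and of SAMP8-AL probe a was at 0.73 over both sera (adjusted p = 0.0125). In those samples SAMP8-CR replicate 1 is the only SAMP8 sample of the first array set.

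With the array set as a block, probe b of Igfbp4 was at 0.44 over both sera (adjusted p = 0.391) and probe a at -0.05 (adjusted p = 0.927). The call of probe b over both sera was kept without any 1 of the 12 samples, with adjusted p-values of 0.00248 to 0.0443. In CR serum probe b passed without SAMR1-CR replicate 1 (log2 fold change 1.61, adjusted p = 0.00845), without SAMP8-AL replicate 1 (adjusted p = 0.0331) and without SAMP8-AL replicate 2 (adjusted p = 0.0495), and among the other 9 samples left out in turn its adjusted p was 0.0613 to 0.225. SAMR1-CR replicate 1, which was high on both Igfbp4 probes, was also the highest SAMR1 sample for Igf2 and for the fibroblast and meningeal marker mean. The part of those markers in the Igfbp4 values was not tested.

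**Figure D3:**
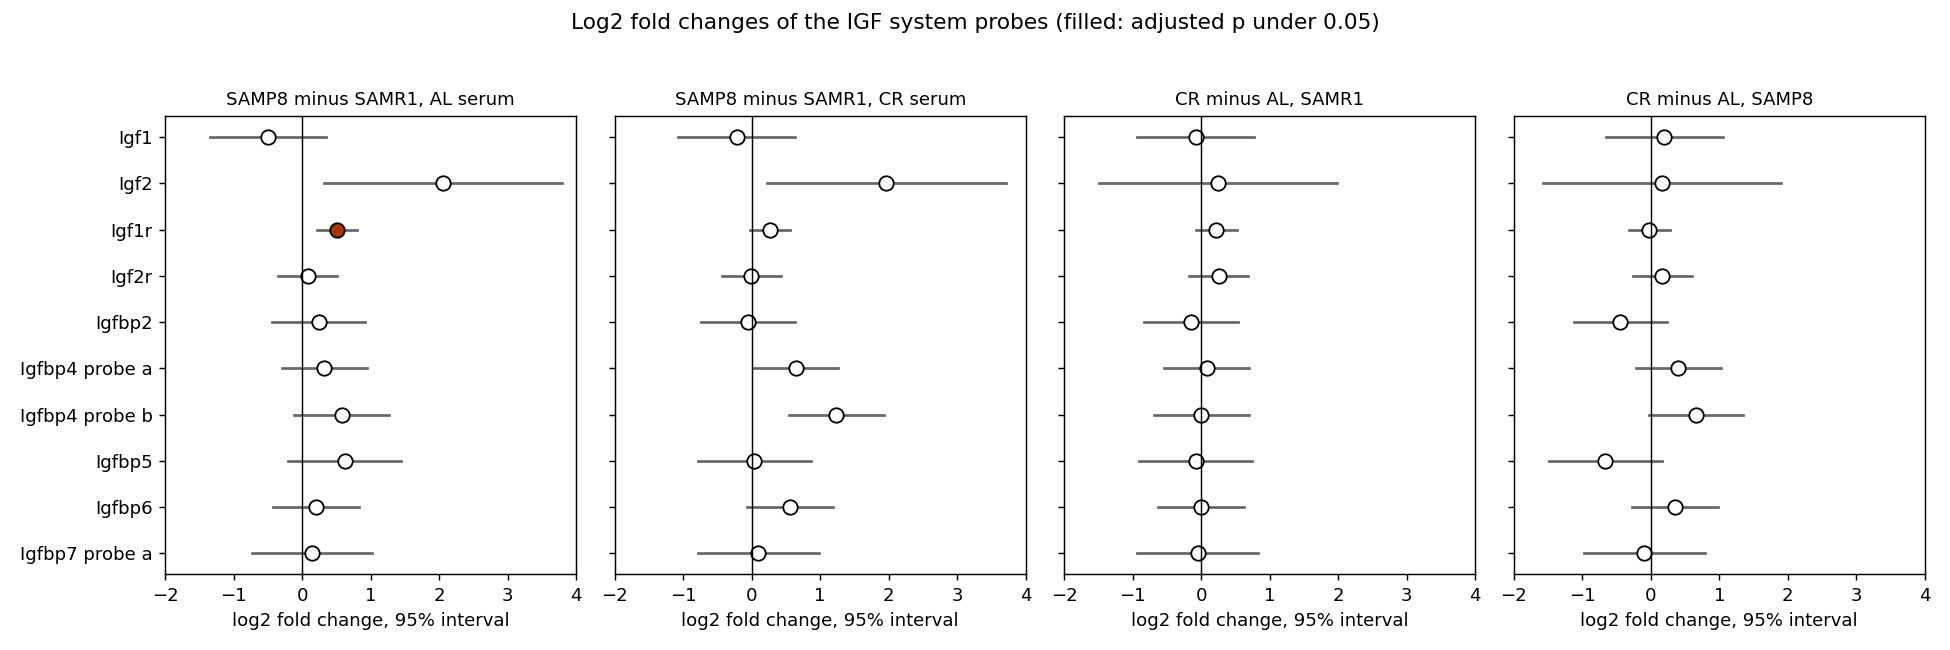
Log2 fold changes (horizontal axis) with 95% intervals of the 10 tested probes between the lines in AL and in CR serum and between the sera in SAMR1 and in SAMP8, filled where the adjusted p was under 0.05. Igf1r in AL serum, at 0.51, is the 1 filled point, and the intervals of Igf2 are the widest, at 1.74 on either side.

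Igfbp2 and Igfbp5, the binding proteins that astrocytes make in quantity, gave a strong signal in every sample, at deposited intensities of 7118 to 17027 for Igfbp2 and 6947 to 19791 for Igfbp5. Igfbp5 was at 5.78, 6.26 and 6.48 in SAMR1-AL, 5.68, 5.87 and 6.74 in SAMR1-CR, 7.69, 6.35 and 6.35 in SAMP8-AL and 5.98, 5.99 and 6.43 in SAMP8-CR. Igfbp2 was at 5.67, 6.38 and 6.52 in SAMR1-AL, 5.62, 5.95 and 6.55 in SAMR1-CR, 6.92, 6.19 and 6.17 in SAMP8-AL and 5.79, 6.03 and 6.14 in SAMP8-CR. On this scale both were highest in SAMP8-AL replicate 1. In that sample the mean of the 12 tested astrocyte markers (3.71, against 2.80 to 3.47 in the other 11 samples) and that of the 4 tested oligodendrocyte and precursor markers (2.46, against 1.81 to 2.42) were highest too. These marker means share the scale. After quantile normalization Igfbp2 was highest in SAMP8-AL replicate 2 (13.83, against 13.70 in replicate 1). The deposited intensities of both genes were highest in SAMP8-CR replicate 1. Over both sera 4 of the 12 astrocyte markers and 2 of the 4 oligodendrocyte markers were higher in SAMP8 and 0 lower, where 9.71% of all tested probes were higher and 5.93% lower. Mog and Mag were detected on no array. The part of these markers in the Igfbp2 and Igfbp5 values was not tested. Between the lines over both sera the log2 fold change was 0.33 for Igfbp5 (SE 0.27, limma adjusted p = 0.443) and 0.09 for Igfbp2 (SE 0.23, adjusted p = 0.819).

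For Igfbp5 and Igfbp2 the call changed with the scaling. The SD of log2 intensity by which each array is divided ran from 1.23 to 1.61, and a probe far above the array's mean moves with it. After quantile normalization in place of this scaling, Igfbp5 was 0.59 higher in SAMP8 over both sera (SE 0.13, 1.5-fold, limma adjusted p = 0.00905) and 0.78 higher in AL serum (adjusted p = 0.0202), and Igfbp2 was 0.35 higher over both sera (SE 0.10, 1.27-fold, adjusted p = 0.0305). On that scale Igfbp5 ran from 12.93 to 13.62 in SAMR1 and from 13.51 to 14.34 in SAMP8, and Igfbp2 from 13.01 to 13.45 in SAMR1 and from 13.40 to 13.83 in SAMP8, so both lines still overlapped slightly. With the array set as a block, on the first scale, the log2 fold change over both sera was 0.70 for Igfbp5 (adjusted p = 0.309) and 0.24 for Igfbp2 (adjusted p = 0.742). After limma's neqc, which also ends in quantile normalization, both passed as well (adjusted p = 0.00998 for Igfbp5 and 0.035 for Igfbp2). In the 10 samples without replicate 1 of SAMR1-AL and of SAMP8-AL, on the first scale, the values were 0.01 for Igfbp5 (adjusted p = 0.984) and -0.16 for Igfbp2 (adjusted p = 0.614), so that the direction of Igfbp2 turned.

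Igfbp6, which prefers Igf2 among the ligands, was near background and was detected on 9 of the 12 arrays. Only in SAMP8-CR, its highest group, was it detected on all 3 arrays, so it was tested through that group alone. Its samples were at -0.06, -0.48 and -0.39 in SAMR1-AL, -0.12, -0.60 and -0.22 in SAMR1-CR, -0.79, 0.26 and 0.20 in SAMP8-AL and -0.47, 0.69 and 0.50 in SAMP8-CR. As with Igf2, the 4 samples of the second array set were above all others, and the 2 SAMP8 samples of the first set were among the 4 lowest. The log2 fold change over both sera was 0.37 (SE 0.21, limma adjusted p = 0.24), and -0.32 in the fit blocked by array set (adjusted p = 0.186). Without the 2 SAMP8 samples of the first set, which leaves line and array set inseparable, it was 0.72 (adjusted p = 0.00203). In the 10 samples without replicate 1 of SAMR1-AL and of SAMP8-AL it was 0.61 (adjusted p = 0.0465), and there only SAMP8-CR replicate 1 is a SAMP8 sample of the first set.

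Igfbp7, a secreted protein of vessel walls and connective tissue, had 3 probes, of which 2 were detected on 0 of 12 arrays and were not tested. The tested probe was at 5.02, 5.14 and 5.83 in SAMR1-AL, 4.85, 5.46 and 5.53 in SAMR1-CR, 4.82, 5.82 and 5.78 in SAMP8-AL and 4.35, 5.65 and 6.14 in SAMP8-CR. Here too the 2 SAMP8 samples of the first set were the lowest of the 12. The log2 fold change over both sera was 0.12 (SE 0.29, limma adjusted p = 0.817), and -0.72 in the fit blocked by array set (adjusted p = 0.144), so its sign turned.

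**Figure D4:**
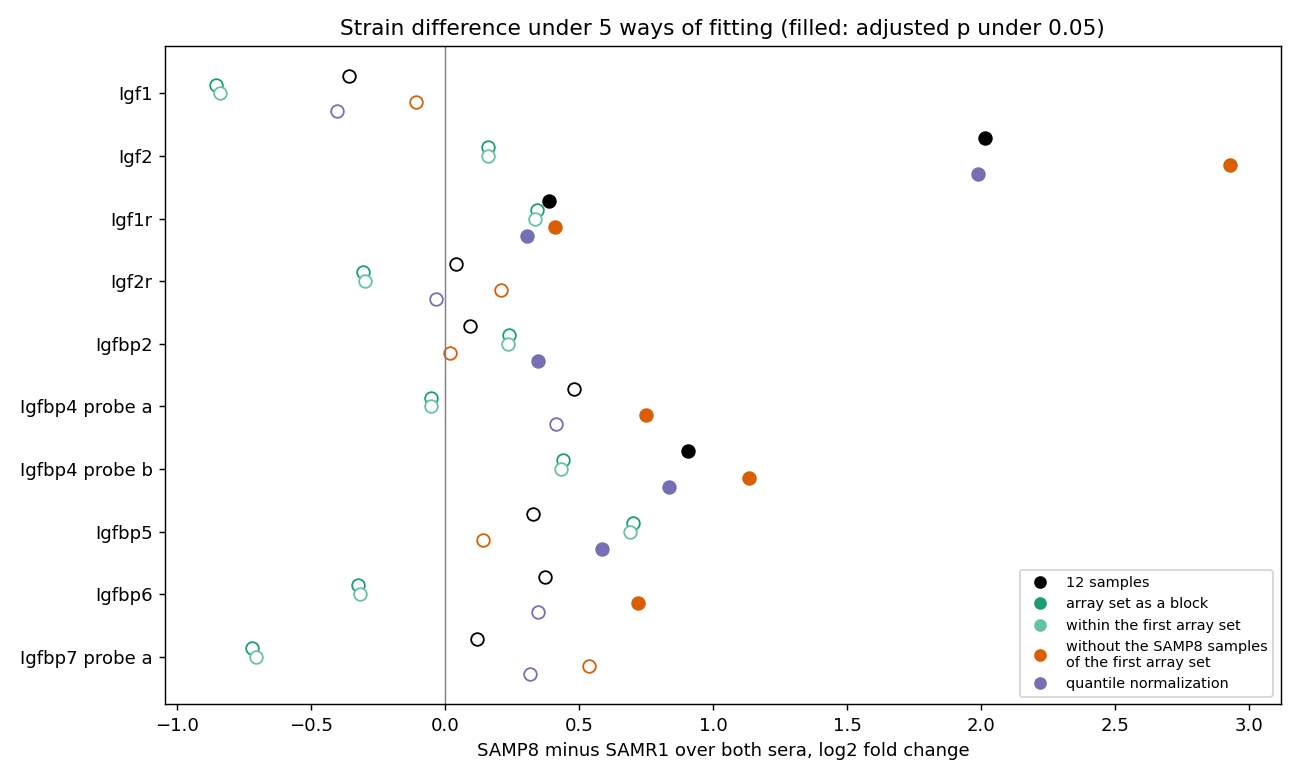
Log2 fold change of SAMP8 against SAMR1 over both sera (horizontal axis) for the 10 tested probes in 5 fits, filled where the adjusted p was under 0.05. Igf2 is at 2.01 in the fit of 12 samples and at 0.16 with the array set as a block or within the first set, Igf1r is at 0.31 to 0.41 in all 5 fits, and Igfbp2 and Igfbp5 are filled after quantile normalization.

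Whether CR serum changed the IGF system was asked within each line. In SAMR1 (R1CR-R1AL), 0 of the 10 probes passed in limma, with log2 fold changes from -0.15 to 0.26, and 0 had an unadjusted p under 0.05. Of all tested probes 0% passed, and 3.41% had an unadjusted p under 0.05. Igf1r did not overlap between the sera in SAMR1, higher in CR serum by 0.22 (SE 0.14, 95% interval -0.07 to 0.52, adjusted p = 0.999), which in that direction was the case for 2.46% of all tested probes. In SAMP8 (P8CR-P8AL), 0 of the 10 probes passed, with log2 fold changes from -0.66 to 0.66, and 0 had an unadjusted p under 0.05, where 0% of all probes passed and 5.33% were under the unadjusted 0.05. The highest value was that of Igfbp4 probe b, 0.66 (SE 0.32, 95% interval -0.03 to 1.35, adjusted p = 0.818), and the lowest that of Igfbp5, -0.66 (SE 0.39, 95% interval -1.49 to 0.16, adjusted p = 0.818). Igfbp2 in SAMP8 was lower in all CR than in all AL samples, by 0.44 (SE 0.32, adjusted p = 0.824), which in that direction was the case for 8.38% of all probes. From replicate 1 to 3 the CR sample differed from the AL sample by -1.13, -0.16 and -0.04. After quantile normalization the sera overlapped for Igfbp2, with SAMP8-CR replicate 2 (13.57) above SAMP8-AL replicate 3 (13.53).

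The AL and CR samples of SAMP8 with the same number deviated together from their group means (r of 0.383, 0.439 and 0.116 over the tested probes), where replicate 1 is also the pair of the first array set. With the number as a block within each line, an alternative chosen after seeing the data, 0 of the 10 member probes passed in limma in SAMP8, with adjusted p-values of 0.387 to 0.972, and 4 had an unadjusted p under 0.05, against 9.96% of all probes. These 4 were Igfbp6, both Igfbp4 probes and Igfbp5. Igfbp6 was higher in CR than in AL serum in each SAMP8 pair, by 0.32, 0.44 and 0.31 (mean 0.35, SE 0.10, adjusted p = 0.387). The filter kept Igfbp6 only through SAMP8-CR, its highest group, so this difference is not support for a serum effect. Igfbp4 probe b was higher in each pair too, by 1.03, 0.38 and 0.56 (SE 0.22, adjusted p = 0.397). For Igfbp5 the pairs differed in sign and in size, at -1.71, -0.36 and 0.08 (SE 0.31, adjusted p = 0.502). The size in replicate 1 depended on the scaling, which divides its AL array by 1.28 and its CR array by 1.61. The deposited intensity there was 17845 in AL and 19791 in CR serum. After quantile normalization replicates 1 to 3 were at 14.34, 13.97 and 13.78 in SAMP8-AL and at 13.69, 13.51 and 13.80 in SAMP8-CR. In SAMP8 the 3 pairs had the same sign for 5 of the 10 member probes and for 38.5% of all tested probes, and in SAMR1 for 2 of the 10, Igf2 and Igf1r, and for 20.9% of all. In SAMR1 the lowest adjusted p of a member in that fit was 0.949.

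Over both lines, CR serum gave 0 calls among the members and 0% among all probes, with 0 member probes and 3.67% of all probes under an unadjusted 0.05. The line by serum interaction gave 0 calls among the members and 0% among all probes, with 0 member probes and 4.38% of all probes under an unadjusted 0.05. The 95% intervals of a serum effect within a line reached up to 1.74 on either side of the estimate, for Igf2, and 0.30 for Igf1r.

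Around the members, the genes of the pathway were counted by lists. Of the receptors, substrates and adaptors next to Igf1r (Insr, the Irs and Grb genes and their like), 5 of 10 genes on the array were tested and 0 passed between the lines over both sera, with a median log2 fold change of 0.07 against 0.02 for all tested genes. In the PI3K, AKT, FOXO and TOR branch that carries the signal into the cell, 1 of 10 tested genes rose in SAMP8 and 0 fell, with a median of 0.20, a share close to the 9.71% of all tested probes that were higher. That gene was Eif4ebp1, the translation repressor that TOR kinase inactivates. It was at 1.76 to 2.55 in SAMR1 and at 2.32 to 3.23 in SAMP8, 0.66 higher over both sera (SE 0.14, limma adjusted p = 0.00597) and 0.41 higher in the fit blocked by array set (adjusted p = 0.203). Of the proteases that cut the binding proteins, their inhibitors and the circulating ternary complex, 0 of 6 tested genes passed, and of the IGF2 mRNA binding proteins 0 of 1.

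Among other proteins with an IGFBP domain, 1 of 5 tested genes fell and 0 rose, where 5.93% of all tested probes were lower over both sera. The list as a whole did not fall. Its median log2 fold change was 0.21, against 0.02 for all tested genes, and 3 of the 5 were above 0. Igfbpl1, a neural relative of the binding proteins, was at -0.19 to 0.64 in SAMR1 and at -0.51 to -0.31 in SAMP8, and all SAMP8 samples of both sets lay below all SAMR1 samples, as was the case for 2.95% of all tested probes. Its log2 fold change was -0.54 over both sera (SE 0.11, limma adjusted p = 0.00523) and -0.51 in the fit blocked by array set (adjusted p = 0.0732). The SAMP8 values were low, near the level at which Igfbp6 in SAMR1-AL replicate 2 (-0.48) had a detection p of 0.0547. After neqc the log2 fold change of Igfbpl1 was -1.10, so its size depended on the processing. Of the imprinted genes of the Igf2 network, 2 of 5 tested rose and 0 fell, where 9.71% of all tested probes were higher. Only those 2 had a log2 fold change above 0 over both sera. The median of the 5 was -0.02, against 0.02 for all tested genes. Mest, a paternally expressed gene, was at 0.78 to 1.36 in SAMR1 and at 1.41 to 2.02 in SAMP8, with replicate 1 of both SAMP8 groups the highest of its group. It was 0.61 higher over both sera (SE 0.13, adjusted p = 0.00649) and 0.87 higher in the fit blocked by array set (adjusted p = 0.00515), so that, unlike Igf2, it passed in both fits. Gnas, which encodes a G protein subunit and overlapping imprinted transcripts, was 0.57 higher over both sera (SE 0.14, adjusted p = 0.0156) and 0.38 in the fit blocked by array set (adjusted p = 0.288). H19, the imprinted neighbour of Igf2, had no listed probe and is not analysed here.

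For each member, the genes whose brightest tested probe followed it most closely over the 12 samples were found by Pearson's r, as a description. Igf2 was most like Fbln1 (r = 0.97), Lrrc15 (0.96) and Itm2a (0.95), and among the 8 samples of the first array set these had r of 0.79, 0.68 and 0.67. Igf1r was most like Chn2 (0.96), Snrk (0.96) and Gas6 (0.94), and these were at 0.95, 0.94 and 0.93 within the first set. Igfbp6 was most like Ptgis (0.96), Dcn (0.96) and Apod (0.95). Igfbp4, by its probe of higher mean, was most like Gypc (0.93), Mgmt (0.92) and Jag1 (0.92). Igfbp5 was most like Olig1 (0.96), Rab31 (0.92) and its chromosomal neighbour Igfbp2 (0.92), and Igfbp2 most like Rab31 (0.95), Dner (0.92) and Wbp2 (0.92). Igf1 followed Fcrls (0.92), a microglial gene, with Foxa1 (0.92) and Srpx2 (0.92), Igf2r followed Vegfd (0.96), Col1a1 (0.87) and Loxl2 (0.87), and Igfbp7 followed Polk (0.94), Col5a1 (0.91) and Lox (0.87). The 12 samples share lines, sera and array sets, so these values order genes and test nothing.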

How the data were processed

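RNA of the 12 cultures had been hybridised to Illumina MouseRef-8 bead arrays. The authors deposited, for every probe and sample, an intensity on a linear scale without normalization and a detection p-value. The authors also deposited a Z score, the log intensity less the array mean and over its SD, which was recomputed here to within rounding. Symbols came from the platform annotation, which gives 20984 probes a single gene, 1 probe more than that and 3628 probes no gene.

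Members and lists were chosen with earlier results of these data known, and the array sets were known from them too. All probes of the 10 symbols were named, of each pathway list up to 4 probes past the threshold of smallest p, and for each member the 3 genes of highest r. The brightest tested probe stood for a listed gene. All 12 samples entered 1 fit of 4 groups, because the labels give no reason to leave any out, and a fit of 10 samples, without replicate 1 of SAMR1-AL and of SAMP8-AL, was an alternative. R 4.3.3 with limma 3.58.1 (lmFit, eBayes with a trend) was used on Z-normalized log2 intensity, with Benjamini-Hochberg adjustment over all 10935 tested probes for 7 comparisons. P-values set a difference against the spread between samples within the 4 groups, with all 12 samples counted as independent. Over both sera the AL and CR samples of 1 number count separately. Where they are related, the p-values and intervals between the lines are too small. In SAMP8 the AL and CR samples of 1 number correlated in their deviations in all 3 pairs (0.116 to 0.439), in SAMR1 in 2 of 3 over 0.1, and no label says what a number marks, so a block by number within each line was added for serum. Precision is limited by how few arrays there are. Alternatives were other samples, a replicate block, the array set, quantile normalization, neqc, other filters and the Z ratio cutoff of 1.5 that the methods name. Python 3.11.15 and matplotlib 3.10.9 drew the figures. Probe and start sequences were read from the study's supplement and from RefSeq (GRCm38.p6). The lists of endothelial, pericyte, neuron, oligodendrocyte and choroid plexus markers were counted as well. Of the 5, 4, 4, 4 and 5 tested genes of these lists, over both sera 1, 1, 1, 2 and 0 were higher in SAMP8 and 0, 0, 0, 0 and 1 lower. Of all tested probes 9.71% were higher and 5.93% lower. Of the study's supplementary tables only the probe sequence was used.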

Additional observations from a re-analysis of the deposited data

How the results depend on the processing

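No member probe passed in a serum comparison or in the interaction under any alternative run. Between the lines in AL serum the count of 1 was 0 under the array set block and 0 in the first array set alone, and 0 to 1 when each sample was left out in turn. By the methods' Z ratio cutoff it was 1 as well, but that was Igf2 in place of Igf1r. With 10 samples and without both SAMP8 samples of the first set it was also Igf2, and SAMP8-AL then held only samples of the second set. After quantile normalization and neqc it was Igfbp5. In CR serum the count of 0 was 1 with 10 samples (without replicate 1 of SAMR1-AL and of SAMP8-AL), 1 with the replicate block, 3 by the methods' Z ratio cutoff and 0 to 1 with a sample left out. Over both sera the count of 3 was 5 with the same 10 samples, 5 after quantile normalization, 5 after neqc, 3 by the methods' Z ratio cutoff (Igf2 and both Igfbp4 probes, without Igf1r), 0 under the array set block, 0 in the first array set alone and 2 to 4 with a sample left out. Leaving out both SAMP8 samples of the first array set, chosen after seeing the data, gave 3 in CR serum and 5 over both sera. Signs turned for Igf2 in CR serum within the first array set (-0.087) and for Igfbp4 probe a over both sera under the array set block (-0.053) and in the first set alone (-0.052), and the cause was not tested. Igf2 in CR serum passed without SAMP8-CR replicate 1 (2.96, adjusted p = 0.0481), and Igfbp4 probe a over both sera without SAMP8-AL replicate 1 (0.69, adjusted p = 0.0129). Over all probes the calls ran from 87 to 1372 in AL serum, 70 to 889 in CR serum, 436 to 2025 over both sera, 0 to 323 and 0 to 473 for serum in SAMR1 and SAMP8, 0 to 324 for serum over both lines and 0 to 382 for the interaction.

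Of 18 pairs of samples with the same replicate number, 10 had a correlation of deviations over 0.1 (range -0.253 to 0.572), and 8 of 12 samples matched their own number best. Across the lines the pairs ran from -0.253 to 0.379, and whether a number links samples there was not tested. Within SAMP8 all 3 pairs were over 0.1, and within SAMR1 replicate 2 was not (0.092). With the replicate block over all groups Igfbp4 probe b passed in CR serum (adjusted p = 0.0443), and the count over all probes there was 477 in place of 306. With the block within each line, the member counts for serum and the interaction stayed at 0, and over all probes 3 passed in SAMR1, 0 in SAMP8, 1 over both lines and 0 for the interaction. Signal over background limits Igfbp6 most among the tested members, with a detection p of up to 0.354, and the intervals of Igf2 are limited by its spread between 3 samples a group.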
